A study of Mus musculus with 8 samples.

Results

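The integrated stress response genes of the PERK branch were followed in polysome RNA of the mouse main olfactory epithelium, the sheet of the nasal cavity that holds the olfactory sensory neurons. The members were chosen by symbol and known role: the kinase gene Eif2ak3 (PERK), the transcription factor genes Atf4, Atf5 and Ddit3, the phosphatase subunit genes Ppp1r15a and Ppp1r15b, and the ATF4 target genes Trib3, Chac1, Asns and Sesn2. All 10 are among the 21765 gene symbols of the deposited table, and all 10 passed the filter of a mean deposited TPM (transcript abundance scaled to a fixed total per library) of at least 1, as did 16097 symbols in all. Tissue received 100 µg/mL cycloheximide, which holds ribosomes on mRNA, when it was dissected, and lysates were run on sucrose gradients of about 42 fractions. Fractions 27 to 34 were pooled as early polysomes, which are lighter and carry fewer ribosomes per mRNA, and fractions 35 to 42 as late polysomes, which are heavier. Wild-type (WT) mice carried Mex3a flox/flox or Mex3a flox/+ with no Cre, and conditional knockout (cKO) mice carried Mex3a flox/flox with Cre. The Cre line is not reported here, and age, strain and sex are not given in the sources used here. The 2 genotypes and the 2 fractions made 4 groups of 2 libraries, and the early and late library of a number came from 1 lysate, so there were 2 lysates of each genotype. Whether a lysate is 1 animal or a pool is not given in the sources used here, so p-values measure the spread between these libraries. The comparisons ask on which of these polysomes the mRNAs sit. They also ask whether that, or the level on these polysomes, changes when Mex3a, the gene of an RNA-binding protein, is deleted. No library held RNA of the other fractions or of the whole lysate. The total level of an mRNA and its part outside these polysomes were therefore not measured.

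PERK is a kinase of the endoplasmic reticulum membrane that phosphorylates the initiation factor eIF2 when unfolded protein builds up in that compartment, and general initiation then slows. Some mRNAs, Atf4 and Atf5 among them, carry upstream open reading frames that hold back the main reading frame in unstressed cells and let it be reached when eIF2 is phosphorylated. In olfactory sensory neurons, expression of an odorant receptor engages PERK and the translation of Atf5, and this signal takes part in keeping that receptor's choice stable as the neuron matures.

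The upstream starts of Atf4, Atf5, Ddit3, Ppp1r15a and Ppp1r15b are shown first, because, as background, these mRNAs are known for translational control through them. Having an upstream start is not particular to these mRNAs, as given below. Sequences are from the GENCODE transcripts on GRCm38, written 5′ to 3′ on the mRNA strand, with the start codon in capitals, 9 bases on each side, and the GRCm38 position of the start codon after the list.
Atf4 upstream start 2: gcggccaccATGgcgtattag
Atf4 upstream start 3: gcctaagccATGgcgctcttc
Atf4 main start: ccccacaacATGaccgagatg
Atf5 upstream start 1: gcccgcgcaATGgctctgtag
Atf5 upstream start 2: ttcgccgccATGgagtcctcc
Atf5 main start: gtcacagccATGtcactcctg
Ddit3 upstream start 1: gattatatcATGttgaagatg
Ppp1r15a upstream start 1: gcgtggacgATGttggcgcag
Ppp1r15a upstream start 2: gaagattacATGcgatatccc
Ppp1r15a upstream start 7: tttgttaccATGactcagtgc
Ppp1r15b upstream start 3: ctagccgggATGgacctaacc
The Atf4 starts lie on the plus strand at chr15:80255582-80255584, chr15:80255681-80255683 and chr15:80256299-80256301. The Atf5 starts (transcript Atf5-201) lie on the minus strand at chr7:44816535-44816537, chr7:44816404-44816406 and chr7:44815164-44815166. Atf4 and Atf5 share an arrangement: a reading frame of 3 codons that ends well before the main start, then a longer reading frame (59 codons in Atf4, 58 in Atf5) that runs past the main start in another frame. In Atf4 the short frame begins 196 nt and the long frame 97 nt before the main start, and in Atf5 these distances are 252 and 121 nt. Atf4 has a further upstream start, at the head of a 36-codon frame 475 nt before the main start. A second Atf5 transcript, Atf5-202, differs in its 5′ end and has 6 upstream starts, the last of which again opens a 58-codon frame that overlaps the main start.

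The Ddit3 start printed above (chr10:127290829-127290831, plus strand) opens a 34-codon frame that ends before the main start. A second start lies within that same frame and reaches the same stop after 31 codons. Ppp1r15a has 2 annotated transcripts with the same coding sequence. In Ppp1r15a-201 there are 3 upstream frames, all of which end before the main start, and starts 1 and 2 printed above (minus strand, chr7:45526232-45526234 and chr7:45526188-45526190) open frames of 45 and 34 codons. In Ppp1r15a-202, the longer transcript and the form used for the comparison of genes below, there are 7 upstream starts. Of these 6 open frames that end before the main start, and start 7 (chr7:45525457-45525459), 77 nt before the main start, opens a 50-codon frame that overlaps it. The files do not tell the 2 transcripts apart. The Ppp1r15b start (chr1:133131517-133131519, plus strand) opens a frame of 51 codons, and all 3 of its upstream frames end before the main start. Eif2ak3 has 3 upstream starts, of which 2 open frames that overlap its main start, Sesn2 has 1, Asns has 1 or 2 depending on the transcript, and Trib3 and Chac1 have 0. An upstream ATG is common: 52.28% of the 14662 genes with an annotated start codon and a measured change have at least 1. In 16.91% of the 14662 a frame overlaps the main start. Genes with no annotated 5′ UTR were not left out and count as having no upstream ATG.

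Library facts that touch these results are few. Reads inferred from the steps of the TPM values summed to 7776792 in the shallowest library (cKO late replicate 2) and to 12771079 in the deepest. Mex3a checked the labels: its deposited TPM was 93.2 to 115.6 in the 4 WT libraries and 11.1 to 19.8 in the 4 cKO libraries. WT early replicate 2 is WT by title but is tagged with the cKO genotype. It had the highest Mex3a level of all 8 libraries and was kept as WT, and the calls, the genotype ranges, the comparison with genes of like length and the list counts are also given without it. Among the marker genes listed for cell types and present among the deposited symbols, none was at 0 in every library. Of the 5 red blood cell markers, only 1 was present.

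The 10 mRNAs spanned a wide range of levels, led by Atf5. All levels below are TPM scaled between libraries by median ratios, a unit that is per length and so can be compared between genes. They are shares within a pool, and the amount of RNA in each pool did not enter them. A higher or lower value in late polysomes is therefore relative to the other mRNAs of each pool, not a count of molecules. Over the 8 libraries, mean scaled TPM was 1304 for Atf5, 332 for Atf4, 200.4 for Ppp1r15b, 176 for Ppp1r15a and 138 for Ddit3. It was 67.8 for Asns, 54.7 for Eif2ak3, 49.1 for Trib3, 19.4 for Sesn2 and 7.54 for Chac1. Atf5 was between the 36th and the 96th most abundant of all genes in every library, on 5056 to 17489 inferred reads. In this order the ranges over libraries of neighbours overlapped except between Atf5 and Atf4, between Trib3 and Sesn2, and between Sesn2 and Chac1. Within libraries, Ppp1r15a was above Ddit3 in 8 of 8. Atf4 was above Ppp1r15b in 6, Ddit3 above Asns in 6 and Asns above Eif2ak3 in 6. Ppp1r15b was above Ppp1r15a in 4 and Eif2ak3 above Trib3 in 4, so the order of those neighbours changed between libraries. In whole tissue, fewer cells of a type and less RNA per cell cannot be told apart.

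**Figure D1:**
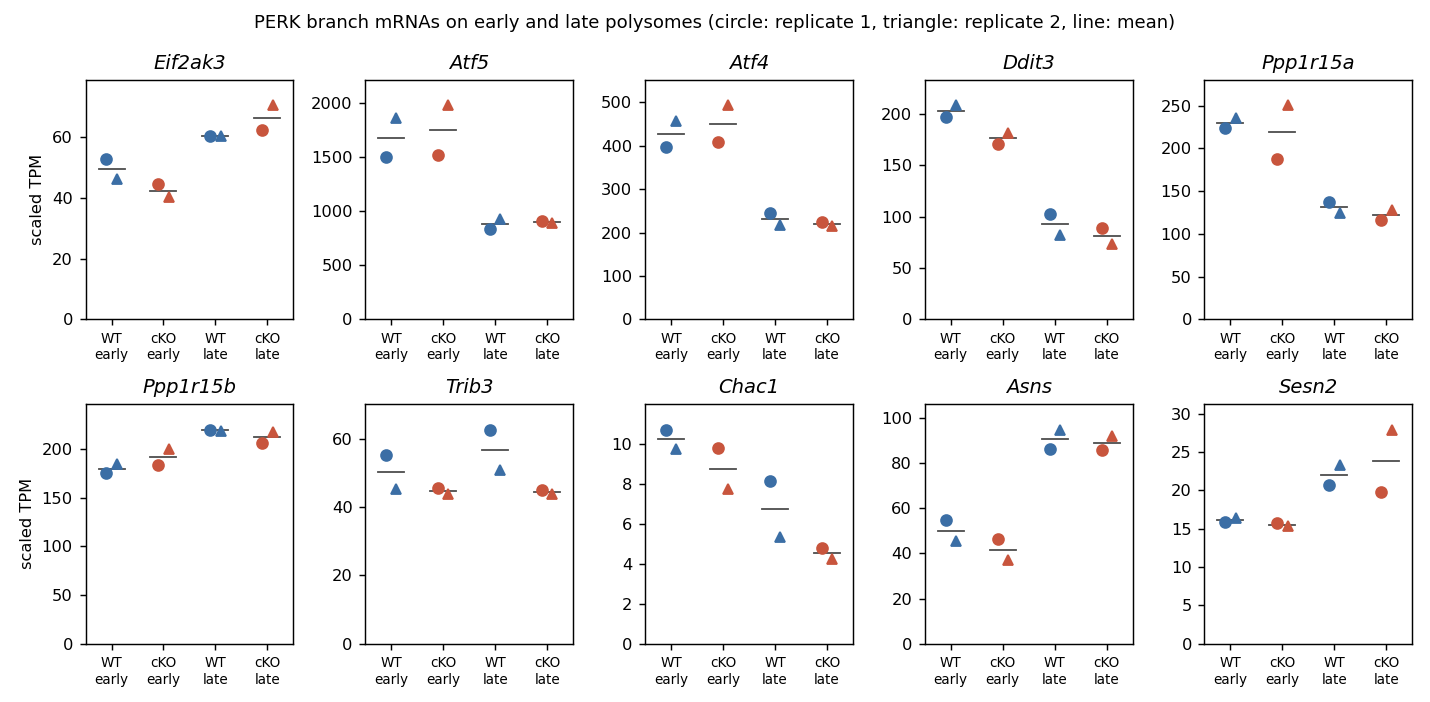
Scaled TPM (linear axis from 0, own scale for each gene) of the 10 mRNAs in WT early, cKO early, WT late and cKO late libraries; each point is 1 library, circles replicate 1 and triangles replicate 2, and lines are group means. Early libraries stood above late libraries for Atf5, Atf4, Ddit3 and Ppp1r15a and below them for Eif2ak3, Ppp1r15b, Asns and Sesn2. WT and cKO libraries overlapped in both fractions for Atf5, Atf4, Ppp1r15a and Asns. They did not overlap in either fraction for Eif2ak3, or in a single fraction for Ddit3, Sesn2, Ppp1r15b, Trib3 and Chac1. Such a split of 2 libraries against 2 is common by order alone, and its share over all genes was not counted.

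Between late and early polysomes the members went both ways, as did genes in general. The mRNAs of the 3 transcription factors Atf4, Atf5 and Ddit3, of Ppp1r15a and of Chac1 were lower on late polysomes, by 1.61-fold to 2.18-fold on average over the genotypes. Those of the kinase PERK, of Ppp1r15b, of Asns and of Sesn2 were higher, by 1.16-fold to 1.95-fold. Only Trib3 was not called. By limma, 9 of the 10 members passed the adjusted threshold of 0.05, with 4 higher and 5 lower in late polysomes. This contrast called 68.9% of all genes tested, 34.3% higher and 34.6% lower. Neither a call nor the division of directions therefore sets the members apart, and the size of each change carries the description. The quartiles over all genes were -0.56 and 0.48, and the changes of Eif2ak3, Ppp1r15b and Trib3 lay between them. The median change of the members was -0.30 on the log2 scale, against -0.011 over all genes. All log2 changes here are of log2(scaled TPM + 1), which understates the change of a low gene such as Chac1.

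Eif2ak3 encodes the sensor kinase itself. Its scaled TPM was 52.7 and 46.2 in WT early, 44.6 and 40.2 in cKO early, 60.2 and 60.5 in WT late, and 62.5 and 70.4 in cKO late libraries. All 4 late libraries were above all 4 early libraries, and the change was positive in each of the 4 lysates (0.19 to 0.79). The average late-minus-early change was 0.46 (SE 0.078, adjusted p = 0.000844 by limma). The Eif2ak3 gene span overlaps that of Gm43292 on the opposite strand by 2449 nt and that of Gm23346 on the same strand by 136 nt.

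Atf4 encodes the central transcription factor of the response. Its scaled TPM was 398 and 456 in WT early and 408 and 493 in cKO early libraries, but 244 and 216 in WT late and 224 and 216 in cKO late libraries. The early and late libraries did not overlap, and the late scaled TPM was 0.438 to 0.615 of the early scaled TPM of the same lysate. The change was -0.96 (SE 0.091, adjusted p = 4.45e-05 by limma).

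Atf5 encodes the relative of ATF4 that olfactory neurons use. It stood at 1505 and 1861 scaled TPM in WT early and at 1519 and 1980 in cKO early libraries, against 835 and 932 in WT late and 912 and 891 in cKO late libraries. Both late groups were below both early groups, with replicate 2 the higher early library in each genotype. The change was -0.93 (SE 0.12, adjusted p = 0.000211 by limma). Even on late polysomes Atf5 remained the most abundant of the 10 mRNAs. The gene spans of Nup62 and Il4i1 on the opposite strand overlap that of Atf5 by 571 and 272 nt. The libraries were stranded, but whether counting used the strand is not given in the sources used here, so reads of such partners could enter the Atf5 value.

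Ddit3 encodes CHOP, a transcription factor of prolonged stress. Its scaled TPM was 197 and 208 in WT early, 171 and 181 in cKO early, 103 and 82.2 in WT late, and 89.3 and 73.0 in cKO late libraries. Ddit3 had the largest fall of the 10, -1.12 (SE 0.097, adjusted p = 3.09e-05 by limma), and every late library was below every early library. GENCODE lists the Ddit3 upstream reading frame as another gene with the same symbol, and Mars overlaps the locus on the opposite strand by 68 nt.

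Ppp1r15a and Ppp1r15b encode regulatory subunits that direct protein phosphatase 1 to eIF2 and so reverse the action of PERK; the first (GADD34) is stress-induced, the second (CReP) constitutive. The pair went opposite ways. Ppp1r15a scaled TPM was 224 and 236 in WT early, 188 and 250.3 in cKO early, 138 and 125 in WT late, and 116 and 128 in cKO late libraries. Its early and late libraries did not overlap, and the change was -0.81 (SE 0.0996, adjusted p = 0.000141 by limma). The Ppp1r15a gene span overlaps that of Tulp2 on the opposite strand by 717 nt, and the Ppp1r15b span that of Gm26616 on the opposite strand by 640 nt. Ppp1r15b was flatter, at 175 and 184 in WT early, 184 and 199 in cKO early, 219.5 and 218 in WT late, and 206 and 218 in cKO late libraries. Its 4 late libraries were all above its 4 early libraries, with a change of 0.22 (SE 0.065, adjusted p = 0.0172 by limma). That call was the only one of the average comparison to depend on single libraries: the adjusted p by limma was 0.0559 without WT early replicate 1, 0.0512 without WT late replicate 1 and 0.0521 without cKO early replicate 1.

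The 4 target genes did not move as a group. Asns, which makes asparagine, rose from 54.6 and 45.6 scaled TPM in WT early and 46.2 and 37.0 in cKO early to 86.4 and 94.7 in WT late and 85.6 and 92.0 in cKO late libraries. Its change of 0.96 (SE 0.096, adjusted p = 5.25e-05 by limma) was the largest rise of the 10, with no overlap between fractions. Sesn2, a sensor of leucine that restrains mTORC1, went from 15.9 and 16.4 in WT early and 15.7 and 15.3 in cKO early to 20.7 and 23.3 in WT late and 19.8 and 27.9 in cKO late libraries. Its fractions did not overlap either, and it rose by 0.49 (SE 0.11, adjusted p = 0.00448 by limma). The Sesn2 gene span overlaps that of Gm12981 by 6089 nt on the same strand, where strand cannot tell reads apart.

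Chac1, an enzyme that degrades glutathione, was the scarcest member, on 19 to 81 inferred reads per library. Its scaled TPM was 10.7 and 9.72 in WT early, 9.76 and 7.72 in cKO early, 8.11 and 5.31 in WT late, and 4.78 and 4.25 in cKO late libraries. The change was -0.69 (SE 0.15, adjusted p = 0.00305 by limma), lower in 4 of 4 lysates, although WT late replicate 1 lay above cKO early replicate 2. Trib3, a pseudokinase that binds ATF4 and CHOP, had 55.2 and 45.4 in WT early, 45.6 and 44.0 in cKO early, 62.7 and 50.8 in WT late, and 45.1 and 44.0 in cKO late libraries. Its libraries overlapped, and its change of 0.081 had a 95% interval of -0.13 to 0.30 (adjusted p = 0.458 by limma).

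**Figure D2:**
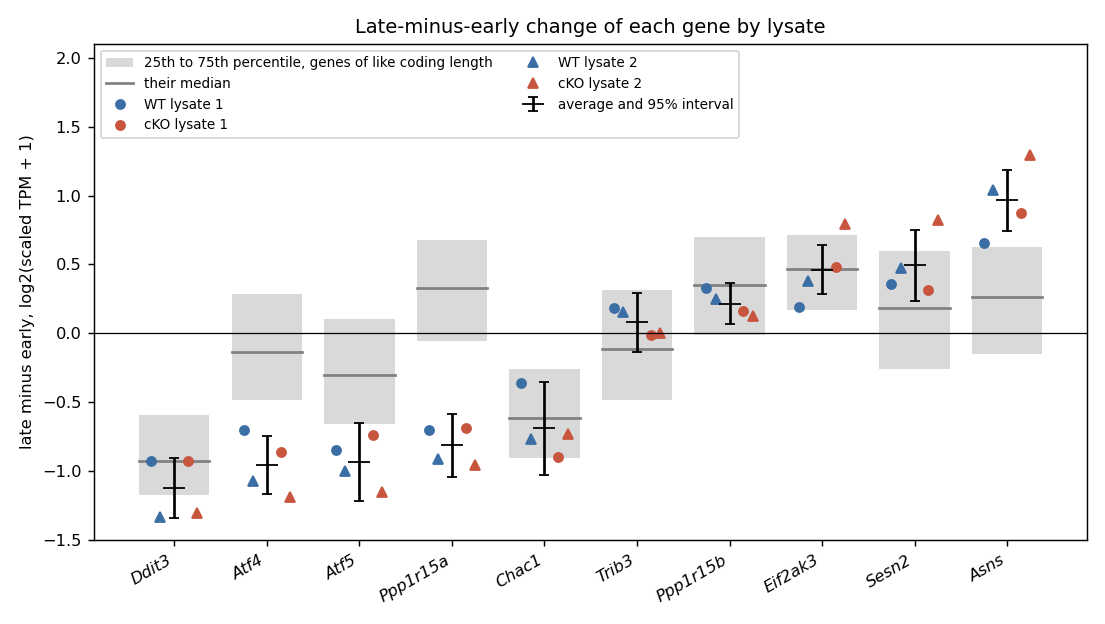
Late-minus-early change in log2(scaled TPM + 1) of each gene, ordered by the average change; coloured points are single lysates (WT blue, cKO red), black bars the average with its 95% interval, and grey boxes and lines the quartiles and median of genes whose coding length is within 10% of that of the gene. Atf4, Atf5 and Ppp1r15a lie below their grey boxes (changes of -0.96, -0.93 and -0.81) and Asns lies above its box (0.96).

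Position on the gradient goes with coding length, and, as background, a longer reading frame can hold more ribosomes. Across the 91.25% of tested genes with a coding length in GENCODE, the change and the length correlated with a Spearman's rho of 0.633, a description across genes, which are not independent replicates and share the same 8 libraries. Each member was therefore set beside the genes whose longest coding sequence was within 10% of its own. Ppp1r15a (1971 nt) stood farthest from its like-length genes: its change was 1.14 below their median of 0.33, and 11 of 1324 (0.831%) lay lower. Atf4 (1047 nt) had a change of 0.82 below a median of -0.13, with 48 of 1778 genes (2.70%) lower. Atf5 (849 nt) had a change of 0.63 below a median of -0.30, with 101 of 1349 (7.49%) lower. These 3 mRNAs thus sat on lighter polysomes than most mRNAs of their length.

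The fall of Ddit3 was near that of other short mRNAs. Its coding sequence has 504 nt, the median of like-length genes was -0.92, and 27.8% of 533 lay lower than Ddit3. Chac1 (669 nt, 44.2% of 892 lower), Eif2ak3 (3342 nt, 49.4% of 708 lower) and Ppp1r15b (2091 nt, 38.8% of 1281 lower) were close to the middle of their classes as well. The rise of Eif2ak3 differed from the median of its class by -0.0051. Above the middle were Trib3 (1062 nt, 62.0% of 1639 lower), Sesn2 (1440 nt, 68.7% of 1667 lower) and Asns (1683 nt, 92.5% of 1550 lower, 0.70 above a median of 0.26). Bands of 5% and 20% of the length, chosen after seeing the data, moved no member by more than the spread between its lysates.

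**Figure D3:**
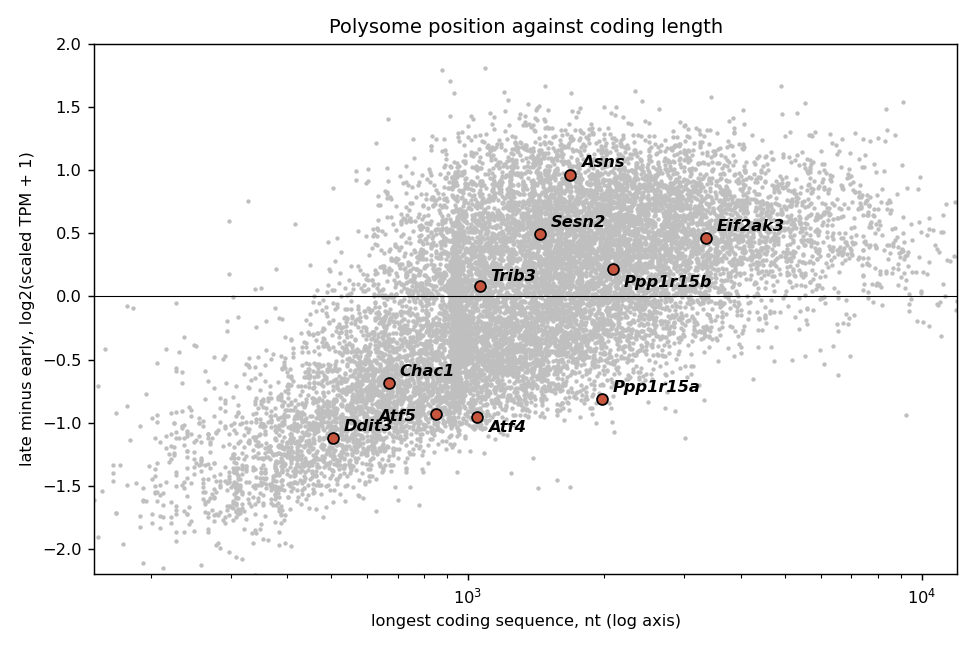
Late-minus-early change in log2(scaled TPM + 1) (linear axis) against the longest coding sequence in nt (log axis); grey points are tested genes and red points the 10 members. Ppp1r15a at 1971 nt lies at the lower edge of the cloud (-0.81) and Asns at 1683 nt in its upper part (0.96).

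Upstream starts occurred both in members that were lower and in members that were higher in late polysomes. Over the 14662 genes with an annotated start codon, the median change was 0.12 with no upstream ATG. It was 0.025 with upstream ATGs of which none overlaps the main start, and -0.15 with an overlapping one. Atf4 and Atf5, each with an overlapping frame, were below -0.15, as was Ppp1r15a, which has an overlapping frame in Ppp1r15a-202 but not in Ppp1r15a-201. Eif2ak3 also has overlapping frames and was at 0.46. Ppp1r15b has upstream frames of which none overlaps and was at 0.22, and Ddit3, likewise with none overlapping, was at -1.12. When like-length genes were limited to those with an upstream ATG, 1.15% lay below Ppp1r15a, 2.96% below Atf4 and 7.64% below Atf5.

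The promoters of the target genes were searched for the C/EBP-ATF response element, the DNA site that ATF4 binds with C/EBP partners, because 4 members are ATF4 targets by background. The letters searched were TGATGNAAN and, for the other strand, NTTNCATCA, in the 250 nt before each start of the RefSeq promoter table on GRCm38.p6. Of the 9 members with a promoter there, Chac1 and Asns held a match, as did 3.4% of all 32851 promoters. The matches are shown in capitals with 10 bases on each side, on the strand of the gene.
Chac1 promoter: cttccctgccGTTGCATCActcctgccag
Asns promoter: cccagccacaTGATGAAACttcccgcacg
The Chac1 stretch is chr2:119351038-119351066 (plus strand) and the Asns stretch chr6:7693214-7693242 (minus strand), beginning with the motif 194 and 23 nt before the RefSeq start. These are the targets at the 2 ends of the late-minus-early range of the 4 (-0.69 and 0.96). GENCODE begins the Asns gene farther upstream than RefSeq does, at 7693254 on GRCm38, so in that annotation the Asns match lies within the mRNA, and it takes in an ATG that is counted above as an upstream start of Asns-201. A match describes letters, not binding.

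Within single genotypes the picture was the same in direction for the genes called. In WT, 7 of 10 members were called by limma (54.8% of all genes), with Ppp1r15b and Asns higher and Atf4, Atf5, Ddit3, Ppp1r15a and Chac1 lower. In cKO, 8 were called (58.1% of all genes), with Eif2ak3, Asns and Sesn2 higher and the same 5 lower. Eif2ak3 and Sesn2 missed the threshold in WT, at changes of 0.28 (adjusted p = 0.0563 by limma) and 0.42 (adjusted p = 0.0546 by limma), and Ppp1r15b missed it in cKO at 0.14 (adjusted p = 0.21 by limma). The Chac1 call in WT was narrow, at -0.56 (adjusted p = 0.048 by limma), and was lost in 11 of 18 alternatives. In cKO, Sesn2 rose by 0.57 (adjusted p = 0.0154 by limma), but by 0.33 without cKO late replicate 2 (adjusted p = 0.092 by limma) and by 0.55 without cKO early replicate 2 (adjusted p = 0.0689 by limma), neither of which passed. Chac1 in cKO, at -0.81, missed the threshold without cKO early replicate 1 (adjusted p = 0.0645 by limma) and without cKO late replicate 2 (adjusted p = 0.0527 by limma).

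Whether these changes differed between genotypes was tested by the interaction of genotype and fraction. None of the 10 members passed by limma, 0 had an unadjusted p under 0.05, and 0.00621% of all genes were called. The interaction nearest to the threshold was that of Eif2ak3, whose rise was 0.28 in WT and 0.64 in cKO. The difference was 0.35 (95% interval -0.0056 to 0.71, unadjusted p = 0.0529, adjusted p = 1.0 by limma). For Atf5 it was -0.021 with an interval of -0.58 to 0.54, and for Atf4 -0.14 with an interval of -0.56 to 0.28, so differences of that size in either direction were not detectable with 2 lysates a genotype. Chac1 had the widest interval, -0.93 to 0.42.

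In these polysome pools, loss of Mex3a moved none of the 10 mRNAs past the threshold. In early polysomes the cKO-minus-WT changes ran from -0.26 (Asns) to 0.094 (Ppp1r15b), with 0 of 10 called by limma, 0 at an unadjusted p under 0.05, and 0.0435% of all genes called. In late polysomes they ran from -0.46 (Chac1) to 0.13 (Eif2ak3), with 0 called, 1 at an unadjusted p under 0.05 (Trib3), and 0.0124% of all genes called. On lysate means, which weigh each lysate once, they ran from -0.33 (Chac1) to 0.041 (Atf5), with 0 called, 1 at an unadjusted p under 0.05 (Ddit3), and 0.00621% of all genes called.

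For the factor with the most RNA, Atf5, the genotype difference was 0.052 in early (95% interval -0.35 to 0.45) and 0.031 in late polysomes (-0.37 to 0.43). The intervals of Atf4 were -0.22 to 0.37 in early and -0.36 to 0.23 in late polysomes. On the linear scale the fitted cKO level of Atf5 was 1.04-fold that of WT in early polysomes, with an interval of 0.786 to 1.37, and that of Atf4 was 1.05-fold, with an interval of 0.857 to 1.29. Libraries of the genotypes interleaved for both genes in both fractions.

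Ddit3 was lower in cKO in early (-0.20, interval -0.51 to 0.11) and late polysomes (-0.19, interval -0.50 to 0.13). Its early libraries did not overlap between genotypes and its late libraries did. On lysate means the difference was -0.19 (interval -0.38 to -0.0054, unadjusted p = 0.0455, adjusted p = 0.434 by limma), which fails the correction. Trib3 was at 62.7 and 50.8 scaled TPM in WT late against 45.1 and 44.0 in cKO late libraries, with no overlap. That difference was -0.33 (interval -0.64 to -0.031, unadjusted p = 0.0343, adjusted p = 0.499 by limma) and fails it too. Chac1 had no overlap in late polysomes (-0.46, interval -0.94 to 0.016) on 19 to 57 reads.

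In Eif2ak3 the genotypes did not overlap in either fraction, and its level was lower in cKO early libraries (-0.22, interval -0.47 to 0.035) and higher in cKO late libraries (0.13, interval -0.12 to 0.39). Sesn2 in early and Ppp1r15b in late libraries also did not overlap, at -0.055 (interval -0.42 to 0.31) and -0.049 (interval -0.26 to 0.16). These separations, and those of Ddit3, Trib3 and Chac1 above, are of 2 libraries against 2, and none of the tests passed. A split of so few libraries is common by order alone. The share of all genes with such a split was not counted, so it does not set these members apart. Ppp1r15a differed by -0.083 in early (interval -0.41 to 0.24) and -0.10 in late polysomes (interval -0.42 to 0.22).

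**Figure D4:**
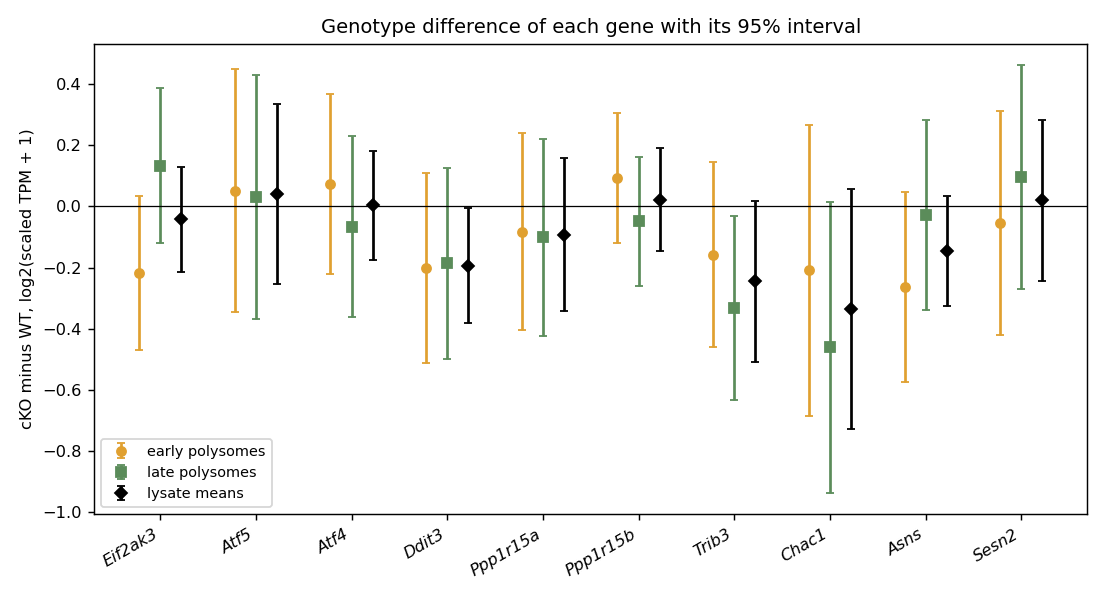
Difference cKO minus WT in log2(scaled TPM + 1) for each of the 10 genes in early polysomes (circles), late polysomes (squares) and lysate means (diamonds), with bars for the 95% interval. All but 2 intervals include 0, and those of Trib3 in late polysomes (-0.64 to -0.031) and Ddit3 on lysate means (-0.38 to -0.0054) do not, before adjustment over all genes.

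The comparisons were repeated without the WT early library with the conflicting tag. On average over genotypes 9 members were still called by limma, 4 of them higher. In WT alone 5 were called, 1 higher, since Ppp1r15b and Chac1 no longer passed (adjusted p = 0.0717 and 0.112 by limma). In early polysomes 0 of 10 differed between genotypes, with changes of -0.39 to 0.20 and adjusted p of 0.754 to 0.983 by limma. The interaction called 0 of 10 (-0.24 to 0.44), and lysate means without that WT lysate called 0 of 10 (-0.50 to 0.16). Of the genes of like coding length, 0.68% then lay below Ppp1r15a, 3.26% below Atf4, 10.5% below Atf5 and 91.2% below Asns.

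Other parts of the pathway were read from lists chosen by known role. Among the 17 genes of eIF2, its other kinases, its phosphatases and its exchange factor, 7 were higher and 4 lower in late polysomes and 6 did not pass (median 0.15). The 64.7% called is close to the 68.9% of all genes called in this contrast, so the count says nothing particular of the list. The catalytic phosphatase subunits that PPP1R15 proteins recruit were among those that fell, Ppp1ca by 0.99 and Ppp1cc by 0.87 on the log2 scale. Eif2b3 and Eif2b2, subunits of the factor that recharges eIF2, were higher by 0.74 and 0.57. Genes of these lists were tested in the same limma fit and adjusted over all genes.

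Of 37 other ATF4 target genes, 24 were higher, 6 lower and 7 not past the threshold, with a median of 0.69. That is 64.9% higher, against 34.3% of all genes. Every tRNA synthetase gene of the list was among those higher, at 0.64 (Lars) to 1.21 (Wars). These further lists were not set beside genes of like coding length, with which the change goes. Whether the share is particular to ATF4 targets was not tested. The change of Asns, 0.96, was above the median of the ATF4 targets, and those of Sesn2, Trib3 and Chac1 were below it. The tRNA synthetase genes Wars and Aars rose from 35.1 to 81.9 and from 61.9 to 142 mean scaled TPM. On the log2 scale these are rises of 1.21 and 1.20, and the serine synthesis genes Psat1 and Phgdh, named after their values were seen, were level with them at 1.20 each. The small transcriptional regulator Nupr1 fell from 601 to 222 and Cebpg, a partner of ATF4, fell from 256 to 126. Of 22 tested genes of the ATF6 and IRE1 branches, which act beside PERK in the unfolded protein response, 12 were higher (54.5%), 7 lower (31.8%) and 3 not past the threshold (median 0.52). Pdia6, a protein disulfide isomerase, and Atf6 itself were higher by 1.20 and 1.16, and Sec61b, a translocon subunit, and Manf, a secreted stress factor, fell by 1.62 and 1.34.

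The remaining lists bear on the class of upstream reading frames and on the receptor signal. Of 14 tested other mRNAs known for upstream reading frames, 4 were higher and 9 lower (64.3%, against 34.6% of all genes), with a median of -0.35; 3 of them (Cebpb, Eprs and Slc7a1) are also in the list of ATF4 targets. Pnrc2 and Ptp4a1 fell by 1.39 and 1.05, and Eprs and Mtr rose by 0.67 and 0.61. Of 8 genes of the receptor feedback, 4 were higher and 4 lower (50% each), against 34.3% higher and 34.6% lower of all genes. The list is short, and its count was not tested against those shares. Without the WT early library with the conflicting tag, the counts of the 5 lists were the same, except that 5 ATF4 targets and 3 receptor feedback genes were lower. Adcy3, the adenylyl cyclase of olfactory cilia, and Kdm1a, the demethylase LSD1, were higher by 1.58 and 0.88, and Lhx2 and Reep1 fell by 0.80 and 0.45. No gene of any of these 5 lists was called between genotypes or in the interaction. Odorant receptor mRNAs summed to 2616 to 3109 scaled TPM in the 4 early libraries, to 2488 and 2505 in WT late and to 2195 and 2223 in cKO late libraries. These sums were not tested between genotypes or fractions. A split of 2 libraries against 2 is common by order alone, and cKO late replicate 2 was the shallowest library.

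**Figure D5:**
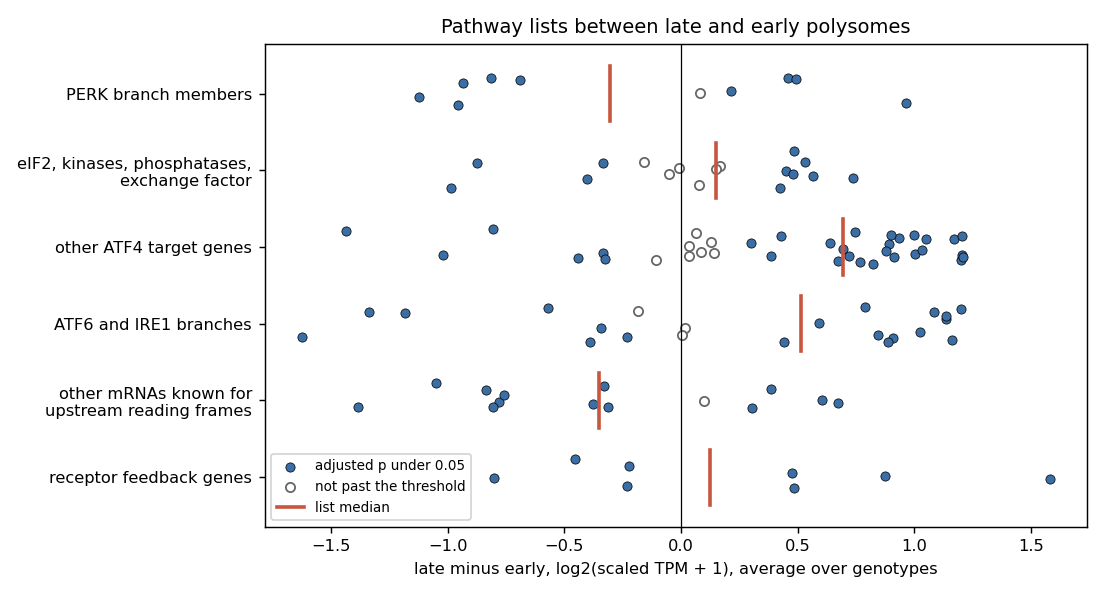
Late-minus-early change in log2(scaled TPM + 1), averaged over genotypes, for each gene of the PERK branch and of 5 further lists (rows); filled points passed an adjusted p of 0.05 by limma, open points did not, red bars are list medians, and the vertical position within a row carries no value. The PERK branch spans -1.12 to 0.96 around a median of -0.30, while the median of the other ATF4 targets is 0.69.

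Over the 8 libraries Atf5 and Eif2ak3 had a Pearson's r of -0.9255, which restates their opposite changes between fractions. It was not particular to the pair. The r of Atf5 was -0.976 with Asns, -0.844 with Sesn2 and -0.785 with Ppp1r15b, the other members called higher in late polysomes. The 3 genes whose log2 levels followed Atf5 most closely over the 8 libraries, among 12816 genes with a mean TPM of at least 5, were Msrb3 (Pearson's r 0.998), Arf3 (0.997) and Cln8 (0.997). Those closest to Eif2ak3 were Ext2 (0.991), Osbpl10 (0.987) and Acbd3 (0.986). The points share 4 lysates and the split into fractions, so these values describe likeness and were not tested.

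Markers of cell types moved between the fractions as well, where 34.3% of all genes were called higher and 34.6% lower in late polysomes. Sustentacular cell markers were higher in late polysomes for 5 of 5 genes, with sums of 1621 to 1764 scaled TPM in WT early, 1388 to 1835 in cKO early, 4027 to 4364 in WT late and 4472 to 4889 in cKO late libraries. Of the fibroblast and vessel markers 5 of 6 were higher in late polysomes, with sums of 8009 to 13260 in WT early, 9069 to 13390 in cKO early, 13430 to 17660 in WT late and 15390 to 17500 in cKO late libraries. Bowman gland markers were higher in late polysomes for 4 of 5 genes, with sums of 3698 to 5214 in WT early, 3469 to 4868 in cKO early, 8928 to 9216 in WT late and 11420 to 11440 in cKO late libraries. The genotypes overlapped in the early but not in the late sums. Mature neuron markers were higher in late polysomes for 4 and lower for 2 of 6 genes, and their sums were lower there, 7099 to 7596 against 8614 to 10830 in WT and 6321 to 7086 against 9507 to 9708 in cKO. Immature neuron markers, 2 higher and 2 lower of 5, summed to 2184 to 2195 in early and 2561 to 2741 in late libraries of WT, and to 2035 and 2365 to 2367 in those of cKO, below WT in both fractions. Leukocyte markers, 1 higher and 4 lower of 7, summed to 360 to 429 in early and 277 to 319 in late libraries of WT, and to 486 to 529 and 360 to 369 in those of cKO, above WT in both fractions. Late sums also stood apart between genotypes for sustentacular and microvillous cells, higher in cKO, and for mature neurons and ensheathing glia, lower in cKO. Those of respiratory ciliated cells and of the lone red blood cell marker were higher in cKO in both fractions. Splits of 2 libraries against 2 are common by order alone and single out no cell type. No gene of these lists was called between genotypes, and the part of cell make-up in the results on Atf5, Atf4 and the other members was not tested.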

How the data were processed

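RNA from early and late polysomes was measured in 8 libraries. The authors deposited 1 table of TPM per gene symbol. Per the submitters' processing notes, FastQC, cutadapt, STAR and DESeq2 were used with the genome mm10; the annotation and the counting rule are not given in the sources used here. The series' design text speaks of sorted cells and transgenes that the labels of these libraries do not name. Because TPM steps were whole multiples for 100% of the 19783 genes above 0 in at least 2 libraries (tolerance 0.001), reads per gene were inferred from them; intervals and SEs cover the spread between libraries.

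Median-ratio factors of 0.940 to 1.07 scaled the TPM. For 16097 genes, limma 3.58.1 (R 4.3.3) tested log2(scaled TPM + 1) (4 groups fitted together, empirical Bayes with a mean-variance trend, two-sided, Benjamini-Hochberg over all genes, threshold 0.05). Genotype was also tested on means of the 2 libraries of each lysate. Groups and numbers came from sample titles, and library names tie the early and late library of a number to 1 lysate. Deviations from group means of such pairs correlated at 0.0863 in WT and 0.0502 in cKO. Coding lengths and upstream starts came from GENCODE on GRCm38. The test was run on simulated data first. Members and lists were chosen with earlier results of these data known. Named were Mex3a, the members and, from each list, the largest changes past the threshold (at most 2 genes a direction), with groups that did not overlap and a mean scaled TPM of at least 5. Alternatives covered pseudocounts, filters, scaling, trend, voom, blocks and left-out libraries. Figures were drawn with matplotlib 3.10.9.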

Additional observations from a re-analysis of the deposited data

How the results depend on the processing

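No count of called members moved by more than 1.5 times in any alternative tried, and none of the values reversed a call. The lowest adjusted p of a member by limma over all alternatives was 0.623 for genotype in early polysomes, 0.311 in late polysomes, 0.107 on lysate means and 0.598 for the interaction. In WT, Ppp1r15b and Chac1 lost their calls in 5 and 11 of 18 alternatives, while Eif2ak3 gained one in 5 and Sesn2 in 6, voom on the inferred reads among them. In cKO, Chac1 and Sesn2 each lost their calls in 2 of 18, and Ppp1r15b gained one in 2. A replicate block by lysate called 11004 genes between fractions (11094 without it) and changed no member's call. A replicate block by number across genotypes, where no label says that a number marks a shared batch, called no member, and 7 genes in early polysomes, 2 in late polysomes and 85 for lysate means (1 without it); same-numbered WT and cKO libraries deviated together at 0.332 in early and 0.143 in late polysomes. Over all genes, calls for genotype ran from 0 to 20 in early polysomes (7 in the main test), from 0 to 15 in late polysomes (2) and from 0 to 85 on lysate means (1), and for the interaction from 0 to 7 (1); the highest were with voom (20 and 15), the block by number (85) and without cKO late replicate 2 (7). Calls between fractions in WT fell from 8826 to 5874 without WT early replicate 2. With TPM as deposited, 56.22% of calls between fractions were higher in late polysomes, against 49.75% with scaling. With 2 lysates a genotype, and 19 to 81 reads for Chac1, small genotype differences were not detectable.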
